A study of Mus musculus with 18 samples.

Results

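Blood vessel content was examined through 35 endothelial and angiogenesis genes in mouse mammary tumours driven by an ERBB2 (neu) transgene. The genes were taken from a list of endothelial markers and regulators and matched to the gene symbols of the array platform, using probe sets annotated to 1 gene and, where a gene had several, the brightest on average. All 35 listed genes were measured, out of 19938 genes in all. Of these, 34 matched by symbol, and Gpr116 was found under its current name Adgrf5. Each was read by 1 probe set, and no filter on low values was applied.

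All tumours carried the ErbB2 proto-oncogene as the FVB/N-Tg(MMTVneu)202Mul/J transgene, whose MMTV promoter drives it mainly in mammary epithelium, and were labelled luminal and ERBB2+. Mice were Snai2 KO, from the Snai2tm2Grid allele kept on a B6;129S1 stock, or Snai2 WT, and either parous or nulliparous. Snai2 encodes a transcriptional repressor of the Snail family, and a germline deletion removes it from the stroma and the vessels as well as the epithelium. The 18 arrays, called biological replicates by the labels where a group has several, fell into 6 groups: KO parous with metastasis (3 arrays), KO parous without metastasis (3), KO nulliparous with metastasis (1), KO nulliparous without metastasis (3), WT parous with metastasis (4) and WT nulliparous with metastasis (4). In the first of these groups, replicates 2 and 3 were almost the same array and entered as their mean, which left 17 samples with 2 in that group. Since all WT mice had metastasis, in KO against WT the genotype and the metastasis status cannot be fully told apart. Ages were not given in the labels used here.

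Endothelial cells line every blood vessel and are held together by their own cadherin, claudin and adhesion molecules. New vessels sprout when VEGF acts on the receptor Kdr at a tip cell, while the Notch ligand Dll4 holds neighbouring cells back from sprouting. The angiopoietins act on the receptor Tek: Angpt1, made largely by mural cells, keeps vessels quiet, and Angpt2, released by endothelial cells, opposes it in most settings. Tumour vessels are often leaky and poorly covered by mural cells, and oxygen-poor tumour tissue is a known source of VEGF.

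Values are deposited log2 expression values, so a difference of 1 is a 2-fold change, and levels were compared between tumours within a gene and never between genes. Snai2 itself ranged from 6.28 to 6.79 in the 9 KO samples and from 6.68 to 7.09 in the 8 WT tumours, ranges that overlap. Where its probes lie relative to the deleted part was not known here, so its level does not settle the labels. Erbb2 ranged from 12.45 to 12.92 in all 17 samples.

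The promoters of the members were searched for short motifs in the 250 bases before each gene's start (RefSeq, GRCm38.p6). The table held 23 promoters for 17 of the 35 members. CAGGAAG, a core bound by ETS family factors such as Erg, was searched on both strands, where its reverse complement reads CTTCCTG. It was found in 8 of the 23 member promoters (34.8%) and in 10.8% of all 32851 promoters. The genes were Adgrf5, Apln, Cd34, Egfl7, Emcn, Erg and Robo4. CCGGAAG, another ETS core, was in 0 of the 23 against 6.91% of all promoters. CAGGTG, the E-box core that Snail family repressors bind, was added after the other 2 motifs and was in 3 of the 23 (13.0%), those of Egfl7, Erg and Flt4, against 17.2% of all. CAGGAAG and CCGGAAG differ in 1 letter, so the same bases match only 1 of them. A match is a description of the letters and not a measured binding site. Each CAGGAAG match is shown with up to 20 bases on either side, read 5′ to 3′ on the gene's strand, with the motif on either strand in capitals.
Adgrf5 chr17:43360354-43360400 (+): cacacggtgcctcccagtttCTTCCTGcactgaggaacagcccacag
Apln chrX:48034940-48034986 (-): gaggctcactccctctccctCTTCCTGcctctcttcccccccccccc
Cd34 chr1:194938659-194938705 (+): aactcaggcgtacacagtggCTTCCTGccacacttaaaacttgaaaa
Egfl7 chr2:26580973-26581019 (+): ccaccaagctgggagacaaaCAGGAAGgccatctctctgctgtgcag
Egfl7 chr2:26581014-26581060 (+): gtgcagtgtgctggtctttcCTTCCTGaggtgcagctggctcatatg
Egfl7 chr2:26583764-26583810 (+): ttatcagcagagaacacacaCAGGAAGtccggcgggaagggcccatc
Emcn chr3:137340884-137340930 (+): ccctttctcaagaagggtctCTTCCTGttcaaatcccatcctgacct
Erg chr16:95459362-95459408 (-): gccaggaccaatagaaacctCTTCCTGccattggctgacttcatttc
Robo4 chr9:37401902-37401948 (+): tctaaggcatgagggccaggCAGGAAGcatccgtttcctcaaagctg

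The 250 bases before the start are also shown for Kdr and Dll4, the members with the smallest p-values below, and for Tek, the angiopoietin receptor. They held none of the 3 motifs and are therefore printed without capitals.
Kdr chr5:75978456-75978705 (-): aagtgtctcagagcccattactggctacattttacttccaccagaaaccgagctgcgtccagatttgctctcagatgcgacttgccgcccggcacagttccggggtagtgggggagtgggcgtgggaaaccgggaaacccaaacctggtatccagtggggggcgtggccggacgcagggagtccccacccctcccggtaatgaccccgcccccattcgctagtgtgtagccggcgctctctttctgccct
Dll4 chr2:119325534-119325783 (+): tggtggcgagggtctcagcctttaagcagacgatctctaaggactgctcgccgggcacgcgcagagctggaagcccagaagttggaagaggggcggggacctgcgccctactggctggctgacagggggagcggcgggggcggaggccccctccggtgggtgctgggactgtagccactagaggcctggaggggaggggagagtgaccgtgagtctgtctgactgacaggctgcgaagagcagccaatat
Tek chr4:94739039-94739288 (+): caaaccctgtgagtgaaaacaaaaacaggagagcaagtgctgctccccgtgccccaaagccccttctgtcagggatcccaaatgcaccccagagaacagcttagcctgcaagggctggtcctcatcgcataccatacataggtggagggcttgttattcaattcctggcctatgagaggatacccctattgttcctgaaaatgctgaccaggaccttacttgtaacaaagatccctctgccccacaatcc

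The members varied widely between tumours and mostly moved as 1 block. The median SD of a member over the 17 samples was 0.345 on the log2 scale, against 0.166 for all genes. Across the 595 pairs of members the median Pearson r over the 17 samples was 0.612, and 95.1% of pairs were above 0. These correlations describe 17 samples that share 1 normalization. Members that move together are not independent readings, which holds for every count of members in the comparisons below. For 18 members, r with the mean of the other members was over 0.8. It was highest for Esam (0.96), an adhesion molecule of endothelial tight junctions, Egfl7 (0.96), a matrix protein secreted by endothelial cells, Pecam1 (0.95), an adhesion molecule also known as CD31, Cdh5 (0.95), the VE-cadherin of adherens junctions, and Tie1 (0.94), an orphan receptor that modulates Tek. Below 0.5 were Vwf (0.47), the clotting factor stored in endothelial granules, Angpt1 (0.34), Angpt2 (0.30) and Tal1 (0.05), a haematopoietic and endothelial transcription factor. Tal1 was also the least variable member, with a range of 0.27.

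Pecam1 shows the pattern of the block. It was 9.13 and 8.74 in KO parous tumours with metastasis and 8.79, 10.04 and 8.77 in those without. The KO nulliparous tumour with metastasis read 8.67, and those without read 8.94, 8.79 and 9.20. WT tumours gave 9.30, 9.99, 8.62 and 8.94 in parous mice and 9.45, 9.93, 9.14 and 8.87 in nulliparous mice. Replicate 2 of KO parous mice without metastasis, of WT parous mice and of WT nulliparous mice stood above the rest, and all groups with more than 1 sample overlapped with at least 1 other. Those 3 tumours held the highest value of 30 of the 35 members, 17 in the KO tumour, 12 in the WT nulliparous tumour and 1 in the WT parous tumour. Cdh5 read 11.13 in that KO tumour, 11.12 in the WT nulliparous tumour and 11.04 in the WT parous tumour, while the other 14 samples lay at or below 10.32.

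**Figure D1:**
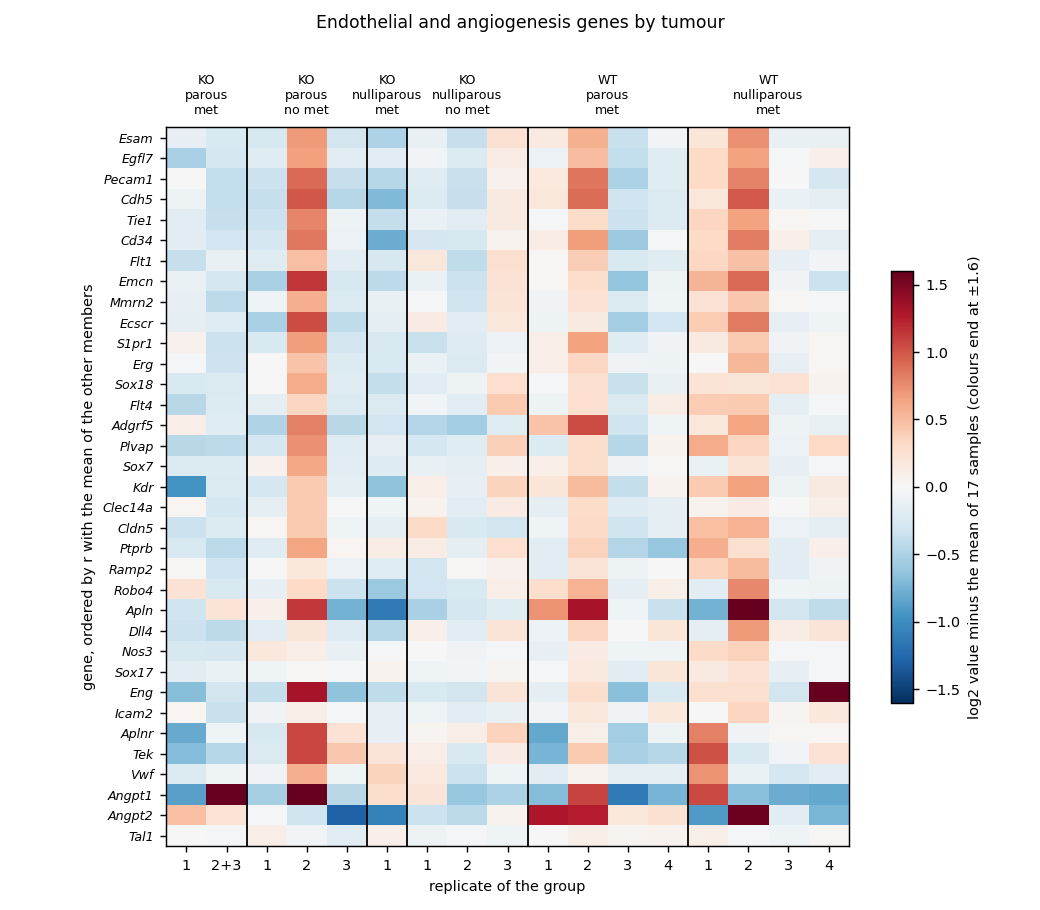
Log2 values of the 35 members (rows, ordered by their correlation with the mean of the others) in the 17 samples (columns, by group), each minus the gene's mean over the samples. Replicate 2 of KO parous mice without metastasis, of WT parous mice and of WT nulliparous mice hold the highest value of 30 members, and Angpt1, Angpt2 and Tal1 at the bottom follow other patterns.

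The same tumours were high in other endothelial genes and in the markers listed for mural cells. The mean log2 value of the members was 8.23 ± 0.05 (SD, n = 2) and 8.50 ± 0.48 (SD, n = 3) in KO parous tumours with and without metastasis. It was 8.15 in the KO nulliparous tumour with metastasis and 8.35 ± 0.16 (SD, n = 3) in those without. The parous WT group had 8.43 ± 0.32 and the nulliparous WT group 8.58 ± 0.26 (SD, n = 4 each). The spread within groups was wider than most gaps between them. Across the 17 samples this mean had r = 0.92 (rho = 0.87) with 25 other endothelial genes and r = 0.90 (rho = 0.85) with 17 markers of mural cells, the pericytes and smooth muscle that wrap vessels. It had r = 0.78 (rho = 0.68) with fibroblast and matrix genes, and r = -0.07 (rho = -0.16) with 20 hypoxia and glycolysis genes. Without the 2 samples farthest from the median of each list, r was 0.88, 0.80, 0.77 and -0.25 in that order. With the hypoxia list it was -0.38 within KO and 0.15 within WT. In whole tumours, fewer endothelial cells and less RNA per endothelial cell cannot be told apart. Nor can it be told which cells expressed the mural or matrix markers. The tumour with the highest member mean (9.06) was replicate 2 of KO parous mice without metastasis. It also had the highest means of 17 for mural cells (9.16), for fibroblasts and matrix (10.62) and for luminal epithelium (11.57). The part of these lists in the result was not tested. Across the 17 samples the luminal list had r = 0.44 (rho = 0.26) with the member mean, and -0.10 without its 2 farthest samples.

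**Figure D2:**
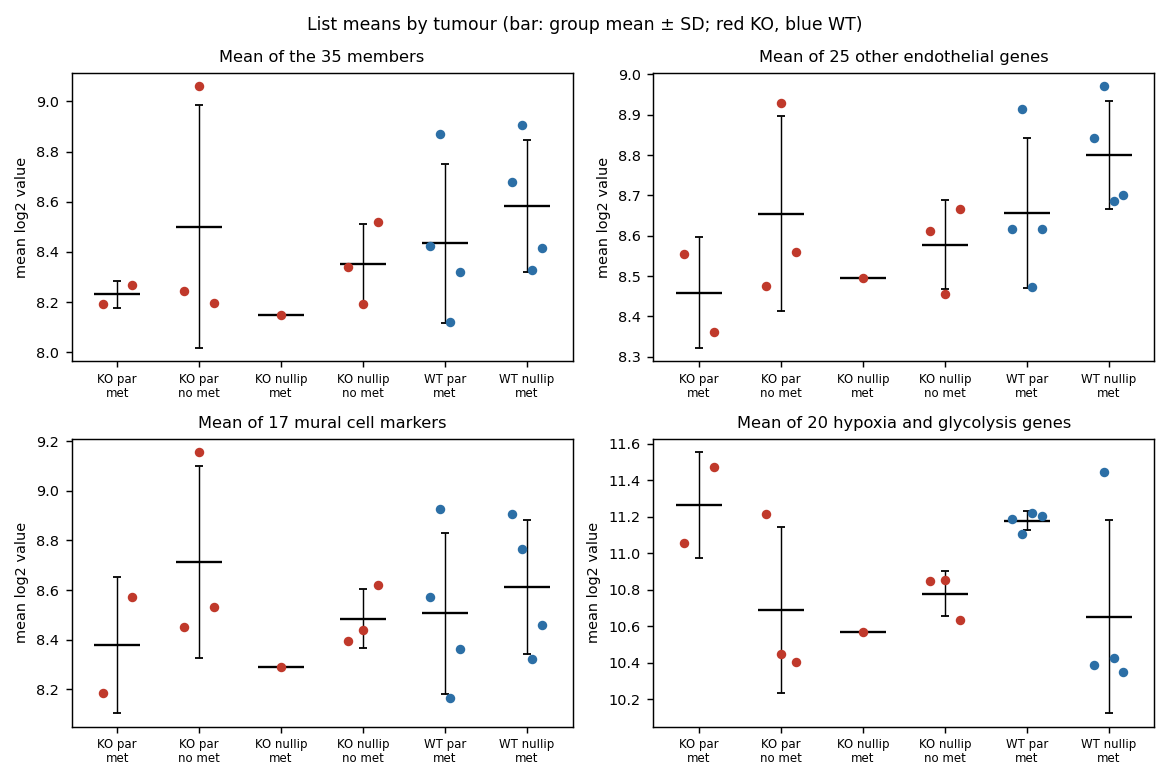
Mean log2 value of the 35 members, of 25 other endothelial genes, of 17 mural cell markers and of 20 hypoxia and glycolysis genes in each tumour (points, KO red, WT blue), with the group mean and SD (bars; no SD for the lone KO nulliparous tumour with metastasis). The member, other endothelial and mural lists vary together, with 1 KO tumour near 9.06 in the member mean, while the hypoxia list does not follow them.

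The first comparison asked whether tumours of KO mice differed from WT tumours in these genes once parity and metastasis status were held in 1 additive model. Of the 35 members, 33 had a difference below 0 (KO minus WT), with a median of -0.32, and no member passed the threshold of an adjusted p under 0.05. Over all 19938 genes, 62.0% had a difference below 0, the median was -0.03, and 0.0% passed. At an unadjusted p under 0.05, 6 members were on the lower side, against 2.68% of all genes, and 0 were on the higher side, against 1.76%. These 6 were Dll4, Kdr, Icam2, Flt4, Nos3 and Cd34. Their number hung on single tumours: it was 12 without KO parous replicate 2 without metastasis or without WT parous replicate 3, and 3 without WT parous replicate 2, without WT nulliparous replicate 1 or 2, or without the averaged KO pair. Because WT tumours without metastasis were not among the samples, this model takes the metastasis effect from KO mice alone. Its KO minus WT difference therefore rests on the KO samples with metastasis: parous replicate 1, the averaged pair and the lone nulliparous tumour. KO tumours without metastasis enter only through the parity term and the spread. The matched parous contrast and the lone-tumour values below use the same KO samples.

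Kdr, the main signalling receptor for VEGF on blood vessels, had the largest difference below 0. KO parous tumours read 7.94 and 8.67 with metastasis and 8.62, 9.31 and 8.76 without. KO nulliparous tumours read 8.25 with metastasis and 9.01, 8.76 and 9.26 without. In WT tumours Kdr was 9.10, 9.41, 8.52 and 8.95 in parous and 9.32, 9.55, 8.82 and 9.04 in nulliparous mice. The 2 lowest of the 17 values were both from KO mice with metastasis. The averaged KO pair with metastasis (8.67) and all KO tumours without metastasis lay inside the WT range. The additive difference was -0.78 (SE 0.21, 95% interval -1.23 to -0.33), with an adjusted p of 0.950. Dll4 followed a like order, with 8.43 and 8.36 in KO parous tumours with metastasis, 8.61, 8.97 and 8.57 in those without, 8.33 in the KO nulliparous tumour with metastasis and 8.86, 8.60 and 8.98 in those without. WT tumours gave 8.69, 9.13, 8.78 and 8.97 for parous and 8.62, 9.46, 8.90 and 8.99 for nulliparous mice. All 3 KO samples with metastasis lay below all 8 WT tumours. Its additive difference was -0.56 (SE 0.15, 95% interval -0.87 to -0.24, adjusted p = 0.950).

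The other 4 had smaller or less certain differences. Icam2, an adhesion molecule of resting endothelium, differed by -0.25 (SE 0.10). For Flt4, the receptor for VEGF-C that also marks lymphatic vessels, the value was -0.37 (SE 0.16). Nos3, the endothelial nitric oxide synthase, gave -0.22 (SE 0.10), and Cd34, a surface sialomucin of vessels and progenitors, gave -0.60 (SE 0.28). Adjusted p was 0.999 for all 4. The 2 members above 0 were Angpt1 (1.04, SE 0.76) and Vwf (0.06, SE 0.21). Skeletal muscle markers were below 0 in 15 of 15 (median -0.46) in this model, and their part was not tested. The 25 other endothelial genes had a median of -0.24 with 22 below 0, the mural markers -0.19 with 15 of 17 below 0, and none of either list passed. Of 36 measured VEGF, Notch, angiopoietin and BMP pathway genes, 29 were below 0 (median -0.26) and 0 passed in either direction.

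**Figure D3:**
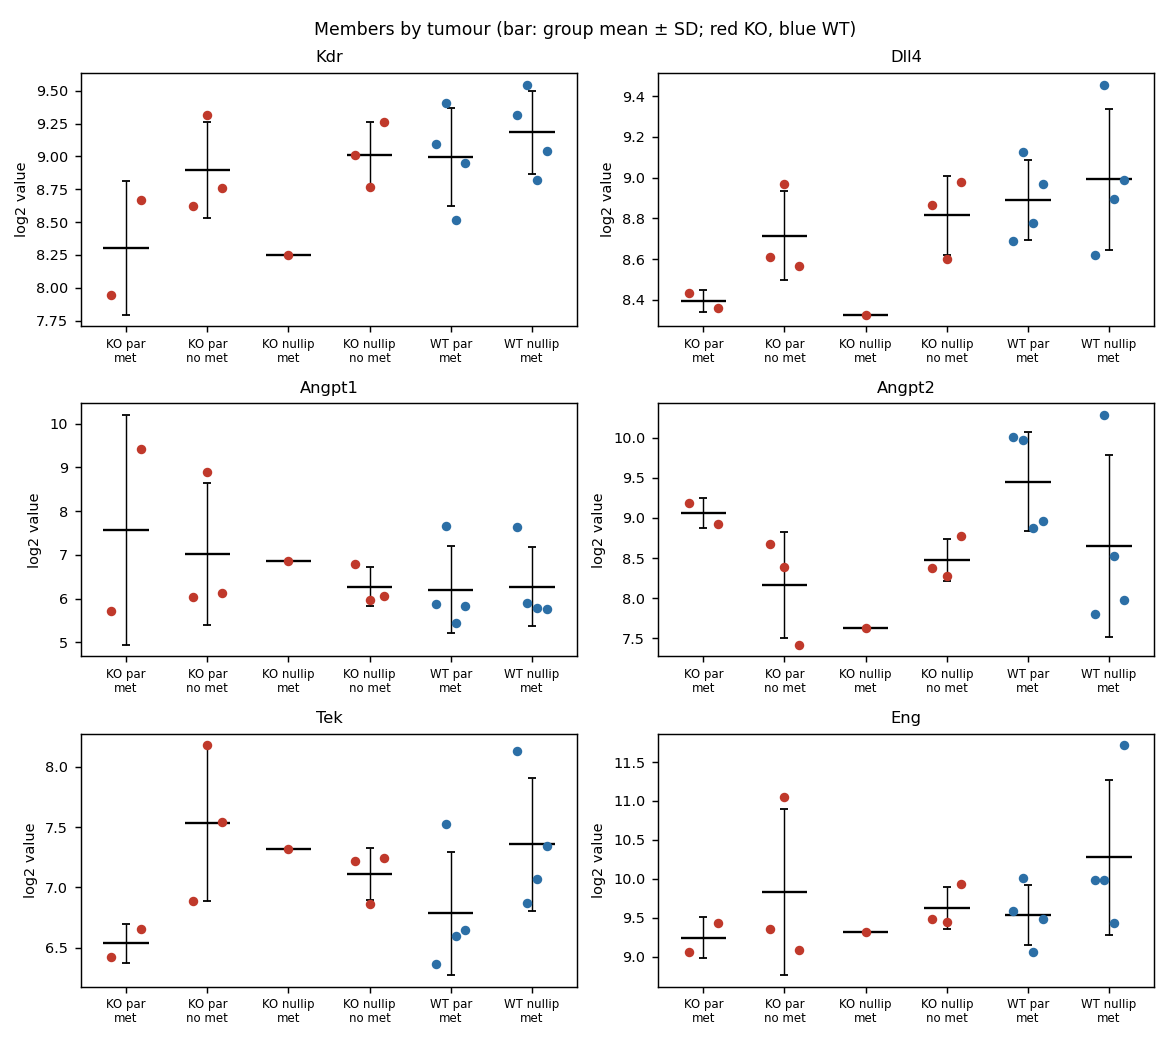
Log2 values of Kdr, Dll4, Angpt1, Angpt2, Tek and Eng in each tumour (points, KO red, WT blue) with the group mean and SD (bars; none for the lone KO nulliparous tumour with metastasis). Dll4 is lowest in KO mice with metastasis, and so is Kdr except in the averaged KO parous pair (8.67). Angpt1 is high in a few tumours of several groups, and Eng has 1 WT nulliparous tumour at 11.72.

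The second comparison took KO against WT within parity, pooling KO mice with and without metastasis. In nulliparous mice (4 KO and 4 WT samples), 34 of the 35 members were below 0, against 54.9% of all genes, with a median of -0.27 against -0.01. No member passed, as for 0.0% of all genes. At an unadjusted p under 0.05 there was 1 member on the lower side, Icam2, against 5.18% of all genes. That count was 8 with metastasis status in the model, 3 without KO nulliparous replicate 3 without metastasis or without WT nulliparous replicate 4, 2 without WT nulliparous replicate 1 or 3, and 0 without WT nulliparous replicate 2. Icam2 was 7.46 in the KO tumour with metastasis, 7.52, 7.41 and 7.47 in those without and 7.58, 7.93, 7.64 and 7.76 in WT tumours, a gap with no overlap (difference -0.26, SE 0.10, adjusted p = 0.469). The KO and WT samples of 3 members did not overlap, with KO lower, against 2.69% of all genes. Beside Icam2 these were S1pr1, the sphingosine-1-phosphate receptor that stabilises vessel junctions (-0.36, SE 0.21), and Adgrf5, an adhesion G protein-coupled receptor (-0.54, SE 0.30). Next by p came Cd34 (-0.58, SE 0.29, adjusted p = 0.647) and Ramp2, the partner of the adrenomedullin receptor (-0.27, SE 0.15, adjusted p = 0.699). Skeletal muscle markers were below 0 in 15 of 15 in this comparison (median -0.50), leukocyte markers in 19 of 19 (-0.47), adipocyte markers in 14 of 15 (-0.40), and fibroblast and mural markers in 15 of 17 each (-0.20 and -0.19). A fit with the adipocyte mean as a covariate was among the alternatives, and no member passed in it. The medians of the 10 alternatives that left out no sample, that fit among them, ran from -0.47 to -0.21. The part of the other lists in the result was not tested. Without WT nulliparous replicate 2 the member median was -0.15, and with metastasis status in the model it was -0.47.

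In parous mice (5 KO and 4 WT samples), 23 members were below 0, against 51.6% of all genes, with a median of -0.06. None passed, as for 0.0% of all genes, and 0 reached an unadjusted p under 0.05 on the lower side, against 2.43% of all genes. The smallest p belonged to Angpt2 (difference -0.93, SE 0.48, adjusted p = 0.862), followed by Dll4 (-0.30, SE 0.17) and Tal1 (-0.08, SE 0.06). The median became 0.06 without WT parous replicate 2 and -0.21 without KO parous replicate 2 without metastasis, the tumours with the highest member means of either group, and it was -0.22 with metastasis status in the model. The count of members lower at that p was 2 in that model and 2 without the same KO tumour or without WT parous replicate 3. It was 1 without KO parous replicate 1 of either metastasis status. Hypoxia and glycolysis genes were below 0 in 18 of 20 (median -0.26) in this comparison. Fibroblast and matrix genes were above 0 in 16 of 17 (0.23) and skeletal muscle markers in 15 of 15 (0.39). The part of these lists was not tested. With the adipocyte mean as a covariate the member median was -0.09.

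Whether the genotype difference depended on parity was tested by subtracting the parous contrast from the nulliparous one. It was below 0 for 31 members, against 52.9% of all genes, with a median of -0.22. No member passed (0.0% of all genes), and 0 reached an unadjusted p under 0.05 on the lower side, against 4.13% of all genes. Tie1 (-0.42, SE 0.32), Cd34 (-0.53, SE 0.41) and Sox18, a transcription factor of vessel development (-0.32, SE 0.25), had the smallest p, each with an adjusted p of at least 0.870. The median was -0.06 without KO parous replicate 2 without metastasis. Other lists were further below 0 than the members. Below 0 were 15 of 15 skeletal muscle markers (median -0.92) and 19 of 19 leukocyte markers (-0.52). So were 16 of 17 fibroblast and matrix genes (-0.46) and 14 of 15 adipocyte markers (-0.33). With the adipocyte mean as a covariate no member passed. The medians of the 10 alternatives that left out no sample, that fit among them, ran from -0.26 to -0.12. The part of the other lists was not tested.

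**Figure D4:**
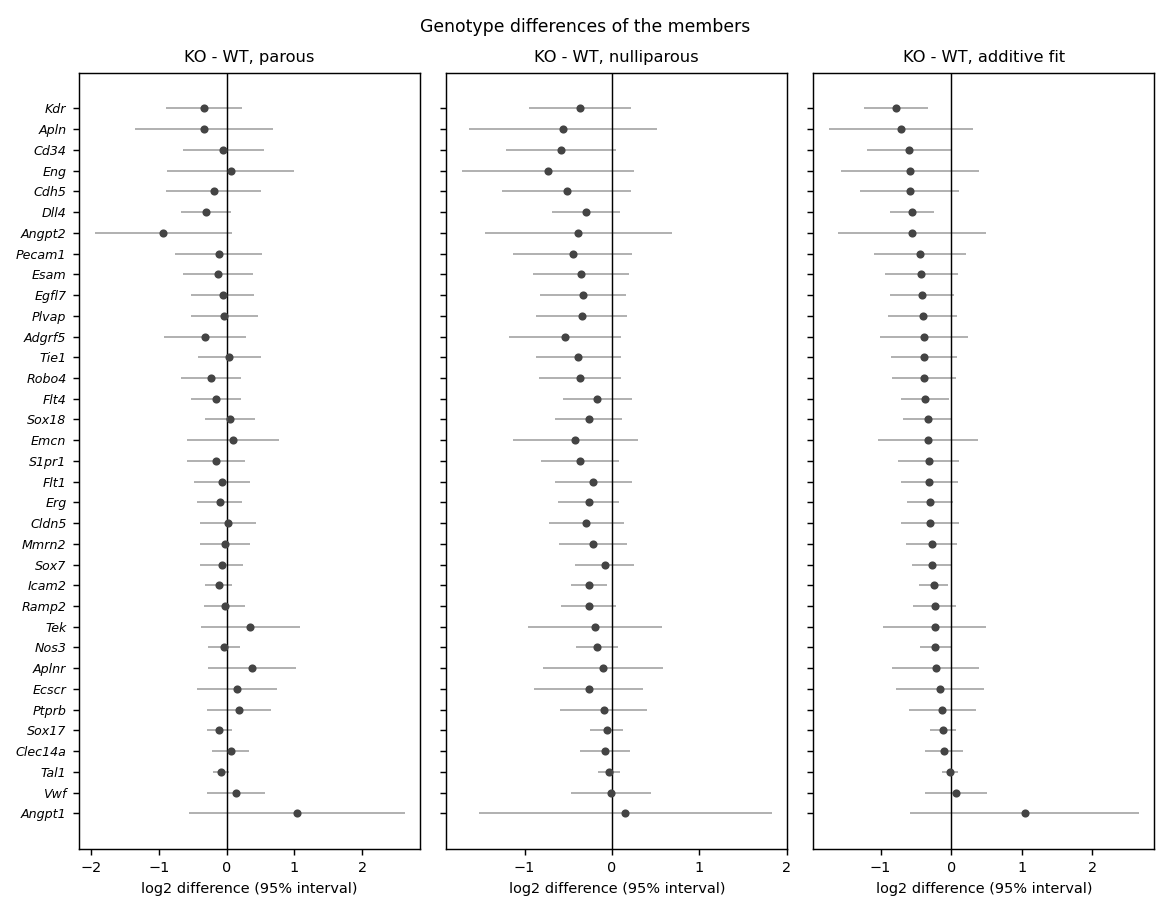
Log2 difference KO minus WT of each member (points) with its 95% interval (lines) in parous mice, in nulliparous mice and in the additive model, ordered by the additive difference. In nulliparous mice 34 of 35 points lie below 0 and in the additive model 33 do, against 23 in parous mice, and most intervals cross 0.

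Parous mice with metastasis gave the genotype contrast matched on both labels (2 KO and 4 WT samples). Here 33 members were below 0, against 58.4% of all genes, with a median of -0.25 against -0.03. None passed, as for 0.0% of all genes, and 2 reached an unadjusted p under 0.05 on the lower side, against 2.83% of all genes. These were Dll4 (-0.50, SE 0.20, adjusted p = 0.846) and Kdr (-0.69, SE 0.28, adjusted p = 0.846). The KO samples lay below all WT tumours for 4 members (11.4%), near the 11.7% of all genes. They were Dll4, Tal1, Nos3 and Sox7, an endothelial transcription factor related to Sox17 and Sox18. Nos3 read 7.22 and 7.20 in KO and 7.34, 7.61, 7.40 and 7.41 in WT tumours (difference -0.23, SE 0.12). The member median was -0.10 without WT parous replicate 2. The count at an unadjusted p under 0.05 was 4 with both near-identical KO arrays kept apart, 3 without WT parous replicate 3, 0 without WT parous replicate 2, and 1 without WT parous replicate 1 or 4 or without either KO sample.

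With a single KO nulliparous tumour with metastasis, that contrast had no replicate check. The tumour lay below all 4 WT nulliparous tumours in 27 of 35 members, against 4910 of 19938 genes, and above all 4 in 0 members. Its median difference from the WT mean was -0.41, with 32 members below 0, against a median of -0.03 and 11653 of 19938 below 0 for all genes. Kdr, Dll4, Cdh5, Pecam1 and Emcn, the sialomucin endomucin of venous and capillary endothelium, were among the 27, while Tek, Vwf, Angpt1 and Ptprb, the phosphatase that restrains Tek, lay within the WT range.

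Comparing KO mice without metastasis with WT mice with metastasis changes 2 labels at once. In nulliparous mice (3 against 4), 34 members were below 0, against 53.4% of all genes, with a median of -0.23. No member passed, although 0.246% of all genes did. Icam2 alone reached an unadjusted p under 0.05 on the lower side (-0.26, SE 0.11, adjusted p = 0.330), against 6.38% of all genes. Icam2, Adgrf5 and S1pr1 were again without overlap, against 6.8% of all genes, and these WT and KO samples are shared with the nulliparous contrast. The median was -0.11 without WT nulliparous replicate 2, and Icam2 no longer reached that p without WT nulliparous replicate 2 or 4 or KO nulliparous replicate 2 or 3. Leukocyte markers were below 0 in 19 of 19 (median -0.65) and adipocyte markers in 14 of 15 (-0.48), and their part was not tested. In parous mice (3 against 4) the picture was mixed, with 15 members below 0, against 47.2% of all genes, and a median of 0.08. None passed, as for 0.0% of all genes. Angpt2 was the 1 member lower at an unadjusted p under 0.05, against 1.67% of all genes, and the 1 member whose KO samples lay below all WT tumours, against 1.93%. Tek was the 1 member higher at that p (0.75, SE 0.35, adjusted p = 0.859), against 4.1% of all genes. Aplnr, the apelin receptor, came next (0.69, SE 0.32). Without KO parous replicate 2 without metastasis the median was -0.15. The count on the lower side was 2 without KO parous replicate 1 or 2 and 0 without KO parous replicate 3 or WT parous replicate 1 or 2. Fibroblast and matrix genes were above 0 in 17 of 17 (median 0.43), skeletal muscle markers in 15 of 15 (0.74), and hypoxia and glycolysis genes below 0 in 20 of 20 (-0.43), and their part was not tested.

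Angpt2 was the second most variable member after Angpt1. It was 9.19 and 8.93 in KO parous tumours with metastasis, 8.68, 8.39 and 7.42 in those without, 7.63 in the KO nulliparous tumour with metastasis and 8.37, 8.28 and 8.77 in those without. WT tumours gave 10.01, 9.97, 8.88 and 8.96 for parous and 7.80, 10.28, 8.53 and 7.98 for nulliparous mice. All 4 WT parous tumours exceeded all 3 KO parous tumours without metastasis, and WT nulliparous replicate 2 held the highest value of all. The difference from WT in parous mice without metastasis was -1.29 (SE 0.52, adjusted p = 0.851). Tek read 6.42 and 6.65 in KO parous tumours with metastasis, 6.88, 8.18 and 7.54 in those without, 7.32 in the KO nulliparous tumour with metastasis and 7.22, 6.86 and 7.25 in those without. WT tumours read 6.36, 7.53, 6.60 and 6.65 for parous and 8.13, 6.87, 7.07 and 7.35 for nulliparous mice. The group means of Tek were lowest in KO and WT parous tumours with metastasis, where those of Angpt2 were highest.

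Both genes varied with the hypoxia and glycolysis list across tumours. The mean of that list was 11.11 to 11.22 in WT parous tumours and 10.35 to 11.44 in WT nulliparous tumours, where only replicate 2 was above 11. Over the 17 samples Angpt2 had r = 0.76 (rho = 0.76) with it, within KO 0.70 and within WT 0.85. Apln, the apelin ligand of tip cells, had r = 0.50 (rho = 0.62), within KO 0.17 and within WT 0.71. Tek had r = -0.72 (rho = -0.71), Aplnr r = -0.59 (rho = -0.59) and Ptprb r = -0.53 (rho = -0.50). Within KO these 3 had -0.80, -0.59 and -0.82, and within WT -0.66, -0.58 and -0.33. Without the 2 samples farthest from the median of the list, r was 0.75 for Angpt2, 0.36 for Apln, -0.73 for Tek, -0.68 for Aplnr and -0.61 for Ptprb. Taken relative to the mean of the pan-endothelial members, Angpt2 had r = 0.85 and Apln r = 0.72. That mean was taken over Pecam1, Cdh5, Kdr, Flt1, Tek, Tie1, Emcn, Cldn5 and Vwf. Since Tek itself had r = -0.72 with the list, subtracting the mean can raise r by construction. Pecam1 (0.01), Cdh5 (0.09), Kdr (-0.08) and Flt1, the VEGF receptor that acts largely as a decoy (-0.08), had pooled r near 0, with opposite signs in the genotypes. Within KO they had -0.39, -0.32, -0.37 and -0.37, and within WT 0.26, 0.39, 0.12 and 0.13. Aplnr and Tek had r = 0.90 with each other, 0.88 within KO and 0.92 within WT. Angpt2 and Apln had r = 0.80, with 0.49 within KO and 0.94 within WT. Without the 2 samples farthest from the median of the first gene, r was 0.83 and 0.69 in that order. These are descriptions over samples that share a normalization, for 35 members, and no test was attached to them.

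**Figure D5:**
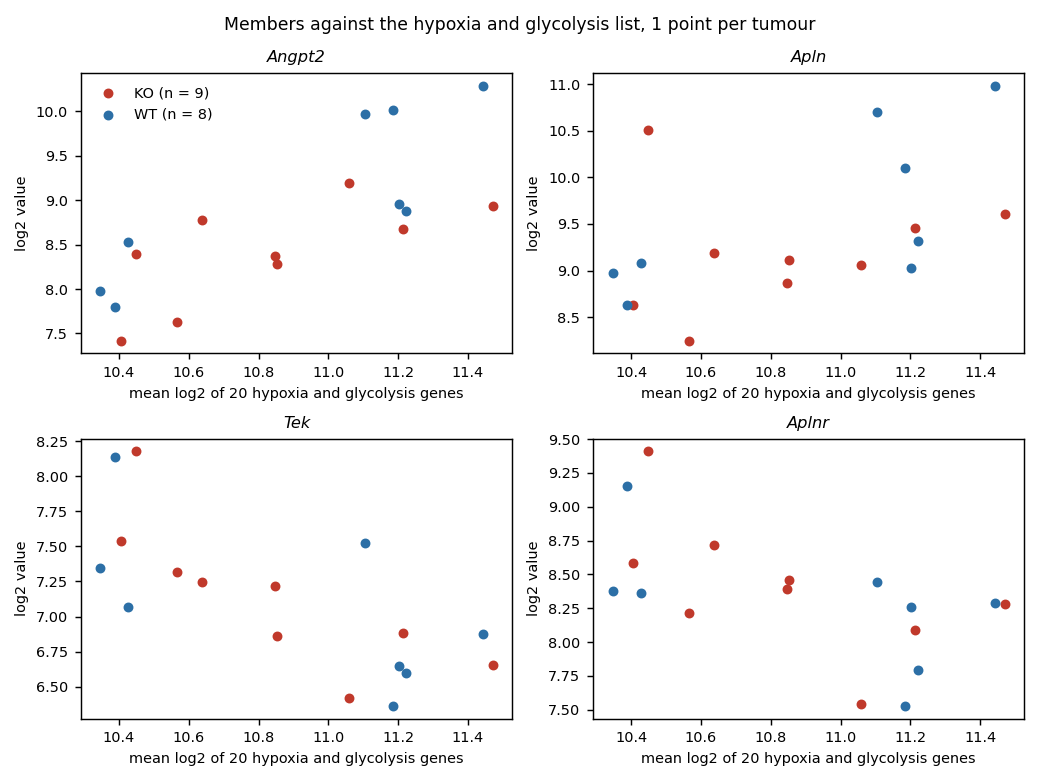
Log2 values of Angpt2, Apln, Tek and Aplnr (vertical axes) against the mean log2 value of 20 hypoxia and glycolysis genes (horizontal axes), 1 point per sample, 9 KO in red and 8 WT in blue. Angpt2 is higher where the list is higher (r = 0.76) and Tek is lower (r = -0.72), in both genotypes.

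Parity was compared within each genotype. In WT mice with metastasis (4 against 4), 29 members were below 0 (parous minus nulliparous), against 51.7% of all genes, with a median of -0.14. No member passed, although 2.4% of all genes did, and 0 reached an unadjusted p under 0.05 on the lower side, against 9.81% of all genes. Nos3 (-0.19, SE 0.10, adjusted p = 0.400), Aplnr (-0.54, SE 0.30) and Tek (-0.57, SE 0.32) had the smallest p. The median was -0.28 without WT parous replicate 2 and -0.06 without WT parous replicate 3, and without the former 5 members were lower at that p. Markers of other cells were further from 0 than the members: 15 of 15 skeletal muscle markers were below 0 (median -0.74), 17 of 17 fibroblast and matrix genes (-0.65), 18 of 19 leukocyte markers (-0.55) and 14 of 15 adipocyte markers (-0.41). Hypoxia and glycolysis genes were above 0 in 18 of 20 (0.60). Of all the other lists, 1 gene passed, the adipocyte lipase Lipe (-0.70), and the part of these cells in the members' values was not tested. In KO mice without metastasis (3 against 3), 5 members were below 0, against 47.4% of all genes, with a median of 0.13. None passed, as for 0.0% of all genes, and 0 members reached an unadjusted p under 0.05 on the higher side, against 1.73% of all genes. Sox7 (0.23, SE 0.17), Icam2 (0.13, SE 0.11) and Tek (0.42, SE 0.37) came first. The median was -0.11 without KO parous replicate 2, so 1 tumour set its sign. Leukocyte markers were above 0 in 19 of 19 (median 0.23) and skeletal muscle markers in 14 of 15 (0.34), and their part was not tested.

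Metastasis status could be compared within parous KO mice (2 with and 3 without). Of the members, 31 were below 0 (with minus without), against 61.1% of all genes, with a median of -0.30. None passed, as for 0.0% of all genes, and 2 reached an unadjusted p under 0.05 on the lower side, against 2.44% of all genes: Nos3 (-0.32, SE 0.13, adjusted p = 0.967) and Tek (mean 6.54 against 7.53, SE of the difference 0.41, 95% interval -1.89 to -0.10, adjusted p = 0.967). Sox7 followed (-0.38, SE 0.19). Samples with metastasis lay below all others for 12 members, against 10.0% of all genes, and above all others for 1 member, Angpt2, against 4.41%. The member median was -0.07 and 0 members were lower at that p without KO parous replicate 2 without metastasis, while 4 were without replicate 1 or 3 of the same group. Skeletal muscle markers were below 0 in 15 of 15 (median -0.88), fibroblast and matrix genes in 17 of 17 (-0.37) and leukocyte markers in 17 of 19 (-0.26), while hypoxia and glycolysis genes were above 0 in 19 of 20 (0.58). Their part in the members' values was not tested.

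Emcn was 9.43 ± 0.39 in WT parous and 9.79 ± 0.56 in WT nulliparous tumours (SD, n = 4 each), and 9.65 ± 0.89 (SD, n = 3) in KO parous tumours without metastasis, where replicate 2 read 10.67. Tie1 was 8.39 ± 0.28 and 8.72 ± 0.30 in WT parous and nulliparous tumours (SD, n = 4 each) and 8.42 ± 0.17 (SD, n = 3) in KO nulliparous tumours without metastasis. Flt1 was 9.02 ± 0.29 and 9.18 ± 0.29 in the same WT groups and 9.04 ± 0.36 in the same KO group. In KO samples with metastasis, Emcn read 9.43 and 9.26 in parous mice and 9.11 in the nulliparous mouse. In the same order Tie1 read 8.29, 8.09 and 8.08, and Flt1 read 8.66, 8.91 and 8.77. Cldn5, the claudin of endothelial tight junctions, ranged over 7.75 to 8.52 in KO and 7.78 to 8.65 in WT samples. Plvap, a component of fenestrae and caveolae in permeable vessels, ranged over 8.58 to 9.75 and 8.56 to 9.61 in the same order, and Apln over 8.25 to 10.51 and 8.63 to 10.98. The genotypes overlapped for each.

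Angpt1 and Vwf were high in a few tumours of several groups. Angpt1 read 5.72 and 9.43 in KO parous tumours with metastasis, 6.05, 8.89 and 6.13 in those without, 6.87 in the KO nulliparous tumour with metastasis, 6.79, 5.97 and 6.07 in those without, 5.88, 7.67, 5.45 and 5.84 in WT parous and 7.63, 5.91, 5.79 and 5.76 in WT nulliparous tumours. The highest value was that of the averaged pair of arrays, and 3 other samples lay above 7. Vwf was above 8 in 3 samples, at 8.52, 8.38 and 8.16. WT nulliparous replicate 1 held the highest Vwf (8.52) and a Tek of 8.13, with skeletal muscle markers at a mean of 10.63 and adipocyte markers at 8.81, the highest of the 17 samples for both lists, and their part in these values was not tested. Eng, the TGF-beta co-receptor endoglin, was 11.72 in WT nulliparous replicate 4 while the other 3 read 9.98, 9.98 and 9.43. That tumour was not high in Pecam1 (8.87) or Cdh5 (10.00).

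Among transcription factors, Erg, the ETS factor that maintains endothelial identity, ranged over 7.21 to 8.08 in the 17 samples, Sox17 over 6.20 to 6.62 and Sox18 over 8.18 to 9.16. Of the surface and matrix proteins, Mmrn2, an endothelial matrix glycoprotein, ranged over 8.41 to 9.42, Clec14a, a lectin-like vessel receptor, over 6.58 to 7.28, and Ecscr, a regulator of endothelial migration, over 8.33 to 9.93. Robo4, an endothelial receptor of the Roundabout family, ranged over 7.81 to 9.17 and Ptprb over 8.31 to 9.55. Of the members, 8 lie on chromosomes 2 and 4 (Eng, Egfl7, Sox18, Dll4, Aplnr, Tek, Tie1 and Tal1). They had a median of 0.05 in KO against WT parous mice, where the other 27 had -0.07, and -0.28 against -0.27 in nulliparous mice.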

How the data were processed

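RNA from mammary tumours was measured on 18 one-colour Affymetrix whole-transcript arrays. Per the file headers, the deposited values are log2 expression levels for 35556 probe sets. Per the submitters' processing notes, RMA and oligo were used (no version stated). RMA normalizes by quantiles, which removes shifts shared by all genes and compresses dim ones, and arrays give no read depth, so their number limits the precision. Platform annotation named 1 gene for 21789 probe sets, several for 1621 and none here for 12146. The first kind gave 19938 genes, of which 19855 had a RefSeq entry (GRCm38.p6).

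Over 10252 genes with a mean of at least 8, the arrays of replicates 2 and 3 in the KO parous group with metastasis differed with an SD of 0.102, against 0.285 for the next of 153 pairs, and were averaged. All 17 samples entered the fits (limma 3.58.1, R 4.3.3; moderated 2-sided tests after lmFit and eBayes), with Benjamini-Hochberg adjustment over all genes and a threshold of 0.05: genotype by parity in 4 cells for the contrasts within parity, 6 group means for direct contrasts, and genotype, parity and metastasis for the additive model. The fits were tested on simulated data.

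The members and the other lists were chosen with earlier results of these data known. Every member is named, with values for the main markers and angiogenic regulators and, in each comparison, for the 3 members with the smallest p. Eng, S1pr1 and the members outside that rule were singled out after their values were seen. The E-box motif and the setting without chromosomes 2 and 4 were also added later. The promoter of Cdh5, planned for display, was not among those held here, and that of Dll4 was shown instead, chosen after its p-value was seen. Alternatives covered normalization, probe sets, dim genes, covariates, the averaged arrays, the variance model, a replicate block and each sample left out. The covariates were metastasis status and the adipocyte mean, each used only for the contrasts within parity and their difference.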

Additional observations from a re-analysis of the deposited data

Results flagged for a closer look

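In the 4 groups formed by genotype and parity, 140 combinations of member and group were checked for a sample standing far from the rest, by its gap to the nearest other sample relative to the whole range of the group. Of these, 14 were past Dixon's limit, where chance gives about 1 in 20, and members that move together are not independent. In the KO parous group, replicate 2 without metastasis stood above the other samples for 10 members: Cdh5 (11.13, nearest other 10.06), Tie1 (9.25, nearest 8.39), Emcn (10.67, nearest 9.43), Esam (9.49, nearest 8.68), Vwf (8.38, nearest 7.75), Eng (11.05, nearest 9.43), Egfl7 (9.90, nearest 9.06), Plvap (9.75, nearest 8.82), Ecscr (9.93, nearest 8.74) and Cd34 (11.02, nearest 10.09). In WT nulliparous mice, Robo4 was 9.17 in replicate 2 (nearest 8.34). In the same group, replicate 1 stood apart with Angpt1 at 7.63 (nearest 5.91) and Aplnr at 9.15 (nearest 8.38). In WT parous mice, Clec14a was 7.16 in replicate 2 (nearest 6.71). The causes were not tested.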

How the results depend on the processing

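No member passed in any of the 10 comparisons under any alternative run, and the lowest adjusted p of a member in any of them was 0.069 (limma, parous against nulliparous WT). Of 176 recomputed medians, 173 kept their sign. The 3 that did not came from leaving out 1 tumour. In parous mice, KO against WT ran from -0.21 to 0.06 with each sample left out. KO without against WT with metastasis in parous mice ran from -0.15 to 0.20, and parous against nulliparous KO from -0.11 to 0.28. The other medians ran from -0.37 to -0.15 (nulliparous KO against WT), -0.39 to -0.06 (difference of the contrasts), -0.31 to -0.10 (parous with metastasis), -0.31 to -0.11 (KO without against WT with metastasis, nulliparous), -0.28 to -0.06 (parity in WT), -0.43 to -0.07 (metastasis in parous KO) and -0.39 to -0.26 (additive).

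The labels do not say that samples of the same replicate number are paired. In their deviations from the group means, 9 of 27 same-numbered pairs correlated over 0.1 (-0.36 to 0.42). This does not settle whether a pairing exists. The 2 samples of KO parous mice with metastasis have mirror-image deviations, so their pairs are not separate readings. With a replicate block, 0 members passed in each comparison, and the medians were -0.10 and -0.27 (KO against WT in parous and nulliparous mice), -0.16 (difference of the contrasts), -0.35 (parous with metastasis), 0.03 and -0.27 (KO without against WT with metastasis, parous and nulliparous), -0.14 and 0.13 (parity in WT and KO), -0.38 (metastasis in parous KO) and -0.43 (additive). Leaving out the dimmest 40% of genes kept 31 members. In the additive model, the 6 members lower at an unadjusted p under 0.05 became 2 after a further quantile normalization and 10 with the 18 arrays kept apart. With the replicate block, members lower at that p numbered 6 against 2 for parous mice with metastasis, 6 against 2 for metastasis in parous KO, and 8 against 6 in the additive model.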

Other observations

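Lymphatic vessels were covered by 5 measured markers, of 6 listed. Their mean log2 value was 6.75 to 7.37 in KO and 6.62 to 7.75 in WT samples, with WT nulliparous replicate 1 highest. Its r with the member mean over the 17 samples was 0.36 (rho = 0.41), below that of the mural list. Without the 2 samples farthest from the median of the lymphatic list, r was 0.61. Within KO it was 0.12 and within WT 0.51. Markers of red blood cells and megakaryocytes (6 measured) had r = 0.80 (rho = 0.57) with the member mean. Kdr and Dll4 had r = 0.77 with each other (rho = 0.77), 0.86 within KO and 0.51 within WT. Vegfa, which is also in the hypoxia list, had r = 0.72 with Angpt2 (rho = 0.76).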
